A study of Homo sapiens with 4 samples.

Results

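The genes described here encode the catalytic and regulatory subunits of the PPP family of serine/threonine protein phosphatases, the enzymes that remove phosphate from serine and threonine residues. They were chosen by name, as the rows of the deposited count table named PPP1 to PPP6 followed by C, CA, CB, CC or a numbered regulatory (R) suffix, with 1 matching row left out. This gave 72 of 35767 rows, of which 64 had enough counts to be tested. RNA was sequenced from SAS cells, a line from a human tongue squamous cell carcinoma. Of the 4 libraries, 2 were labelled as treated with a control siRNA (siControl, genotype WT) and 2 as treated with an siRNA against NAT10 (siNAT10), an RNA acetyltransferase. The genotype label names a NAT10 knockdown in siNAT10 replicate 1 and a NAT11 knockdown in siNAT10 replicate 2. The labels speak of biological replicates but name no separate cultures. The p-values therefore reflect the spread among these 4 libraries alone, and that spread could be technical.

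PPP enzymes gain their specificity from their partners. A small set of catalytic subunits is shared by many regulatory subunits, which place the enzyme on its substrates or block it. PP1 pairs its catalytic subunit with 1 of many unrelated targeting proteins or inhibitors. PP2A is built from a scaffold (A), a catalytic subunit (C) and an exchangeable B subunit of the B55, B56 or PR72 type, and it opposes many kinases of growth signalling and of mitosis. Calcineurin (PP3) is switched on by calcium. PP4 and PP6 have regulatory subunits of their own, and PP5 carries its regulatory domain in the same chain.

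Total counts ranged from 30794757 to 36341785 per library. NAT10 RNA showed no fall in the siNAT10 libraries, where it stood at 253 and 248 CPM (counts relative to scaled library totals), against 240.4 and 231 CPM in siControl. On the log2 scale the difference was 0.09 ± 0.06 (SE, edgeR adjusted p = 0.293, 2 libraries a group). The labelled knockdown is thus not visible in these counts, and "siNAT10" below means only the libraries so labelled. NAA40, for which NAT11 is an older name, was not called either (-0.15 ± 0.10, edgeR adjusted p = 0.255). Of 7 squamous epithelial markers found in the table, KRT17 and SFN were high and the others low, with KRT5 at 0.0808 to 0.202 CPM, TP63 at 0.474 to 0.97 CPM and CDH1 at 0.779 to 1.29 CPM. Their sum was 1080 and 1109 CPM in siControl and 814 and 861 CPM in siNAT10, with 1 of 6 tested markers higher and 3 lower. The sum over 5 fibroblast markers was 34.2 and 37.7 CPM in siControl and 31.7 and 30.6 CPM in siNAT10, nearly all of it COL1A1, which was called lower (log2 fold change -0.42), and PDGFRB, which was called higher (0.38), with LUM at 2 to 4 counts. Over 4 endothelial markers it was 2.52 and 3.07 CPM in siControl and 3.35 and 3.76 CPM in siNAT10, with KDR at 0 to 2 counts. Within that sum PECAM1 was called lower (35 and 46 counts in siControl, 10 and 4 in siNAT10) and VWF higher (7 and 2 counts in siControl, 39 and 26 in siNAT10). The pan-leukocyte gene PTPRC had 0 to 4 counts per library. The part of any such shift in the results below was not tested.

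The phosphatase genes as a set moved about as often as other genes, and the only changes of at least 2-fold lay in PP2A's exchangeable B subunits. Of the 64 tested members, 11 rose and 12 fell at an edgeR adjusted p under 0.05, that is 35.9% of them, beside 40.4% of all 20098 tested genes. In each direction the background was 19.7% higher and 20.7% lower. The median log2 fold change was 0.09 for the members and -0.0079 for all tested genes, and the median size of change was 0.21 and 0.32. Changes of at least 2-fold were called for 2 members, PPP2R2B (higher) and PPP2R5B (lower), beside 2.74% of all tested genes for rises and 5.62% for falls. The CPM of the groups did not overlap for 47 of the 64 members, or 73.4%, beside 69.5% of all tested genes. Of these, 28 lay higher and 19 lower in siNAT10, beside 34.1% and 35.4% of all tested genes. Scaled by library totals alone, 8 members rose and 15 fell, and the median of all genes then stood at -0.12. In bulk RNA, fewer cells of a type and less RNA per cell cannot be told apart.

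**Figure D1:**
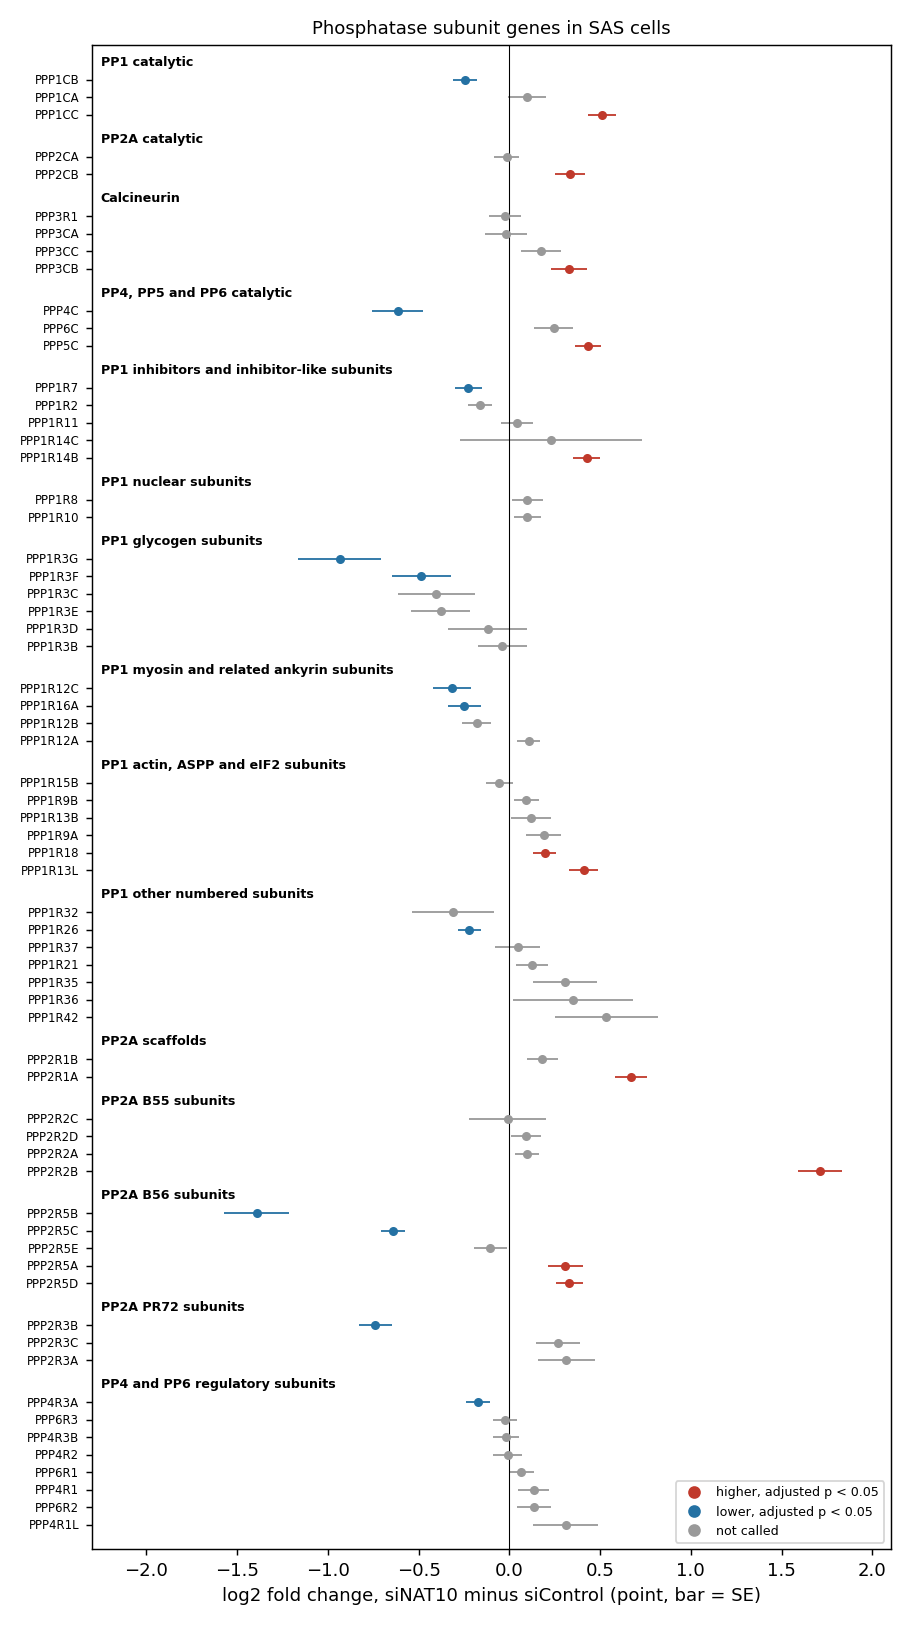
Log2 fold change (siNAT10 minus siControl, horizontal axis) of the 64 tested phosphatase subunit genes, grouped by role, with bars for the SE and colour for the call at an edgeR adjusted p under 0.05. PPP2R2B (1.71) and PPP2R5B (-1.39) lie farthest from 0, and 41 members are not called.

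The 12 catalytic and calcineurin B genes were all tested, and their changes were of less than 2-fold. PPP1CB, which encodes the beta form of the PP1 catalytic subunit, was measured at 152 and 155 CPM in siControl and at 131 and 128 CPM in siNAT10, replicate 1 before replicate 2 here and below. Both siNAT10 libraries lay below both siControl libraries. PPP1CB fell by 0.24 ± 0.06 on the log2 scale (edgeR adjusted p = 0.00541), a call lost without siNAT10 replicate 2 (-0.22, edgeR adjusted p = 0.0834) and against a fold change of 1.2. PPP1CC, the gamma form, which is known from the nucleolus and from mitotic chromosomes, had 33.3 CPM in both siControl libraries and 46.8 and 48.0 CPM in siNAT10. The groups did not overlap, and PPP1CC rose 1.42-fold (log2 fold change 0.51 ± 0.08, edgeR adjusted p = 2.94e-05). PPP1CA, the alpha form, had 16.5 and 18.0 CPM in siControl and 17.5 and 19.4 CPM in siNAT10, with overlapping groups. Its log2 fold change was 0.10 ± 0.10, with a 95% interval from -0.12 to 0.31 (edgeR adjusted p = 0.484). CARNS1, RAD9A and TBC1D10C overlap exons of PPP1CA on the other strand, and SPDYA overlaps 7.99% of the exon length of PPP1CB.

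The PP1 catalytic transcripts held less of the beta and more of the gamma form in siNAT10. Per kilobase of exon length, PPP1CB made up 70.7% and 70.2% of the summed level of the 3 genes in siControl and 63.2% and 61.2% in siNAT10. PPP1CC made up 12.95% and 12.6% in siControl and 18.8% and 19.1% in siNAT10. The summed level itself was 37.2 and 38.4 CPM per kilobase in siControl and 36.0 and 36.4 in siNAT10. Neither the sums nor the shares of PPP1CB and PPP1CC overlapped between groups, and the sums lay closer together than the shares. With 2 libraries a group, an exact permutation test of a share cannot reach 0.05, and the shares are given as a description.

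Of the PP2A catalytic genes, the less abundant one rose. PPP2CA, the alpha form, had 110.8 and 121 CPM in siControl and 110.1 and 119 CPM in siNAT10, so the groups overlapped. Its log2 fold change was -0.01 ± 0.07, with a 95% interval from -0.16 to 0.13 (edgeR adjusted p = 0.893). PPP2CB, the beta form, had 25.7 and 25.5 CPM in siControl and 32.0 and 32.5 CPM in siNAT10. It rose 1.26-fold (log2 fold change 0.33 ± 0.08, edgeR adjusted p = 0.00373), a call lost against a fold change of 1.2. Reads shared by this closely related pair were not measured. On the same strand, CTD-2410N18.5 overlaps 5.51% of the exon length of PPP2CA. CTD-2410N18.5 had 2646 and 2924 counts in siControl and 3338 and 3022 in siNAT10. Its part in the PPP2CA value and in the shares was not tested. Per kilobase, PPP2CB made up 22.5% and 20.9% of the pair in siControl and 26.7% and 25.5% in siNAT10.

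PP4 and PP5 moved in opposite directions. PPP4C, the PP4 catalytic gene, lies on chromosome 16 (30075978 to 30085377, GRCh38) and had 106 and 148 CPM in siControl and 80.9 and 85.1 CPM in siNAT10. The siControl libraries stood far apart, and both siNAT10 libraries lay below them. PPP4C fell by 0.61 ± 0.14 on the log2 scale (edgeR adjusted p = 0.0111). Without siControl replicate 2 its log2 fold change was -0.36 and without siControl replicate 1 it was -0.84, each still called. PPP5C, which encodes the phosphatase that binds the chaperone HSP90, had 69.3 and 67.9 CPM in siControl and 86.7 and 98.7 CPM in siNAT10. It rose 1.35-fold without overlap of the groups (0.43 ± 0.07, edgeR adjusted p = 1.06e-04). PPP6C, the PP6 catalytic gene, was at 13.1 and 13.9 CPM in siControl and 16.9 and 15.01 CPM in siNAT10, which did not pass the test (0.24 ± 0.11, edgeR adjusted p = 0.079).

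Calcineurin genes differed little. PPP3CB, a catalytic A subunit gene, had 17.3 and 16.4 CPM in siControl and 22.1 and 20.2 CPM in siNAT10. It rose 1.26-fold (log2 fold change 0.33 ± 0.10, edgeR adjusted p = 0.0115), a call lost in 4 of 12 alternatives, among them the leaving out of siNAT10 replicate 1 (0.26, edgeR adjusted p = 0.117). PPP3CA was at 16.4 and 13.1 CPM against 14.3 and 14.9 CPM (log2 fold change -0.02, 95% interval -0.26 to 0.23). PPP3CC was at 13.3 and 11.7 CPM against 13.9 and 14.3 CPM (0.17, 95% interval -0.06 to 0.41). PPP3R1, the calcium-binding B subunit gene, was at 29.3 and 28.1 CPM against 27.05 and 29.6 CPM (-0.02, 95% interval -0.21 to 0.16). PPP3CA, PPP3CC and PPP3R1 were not called. RP11-474G23.1 and RP11-474G23.2 overlap PPP3R1.

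PP2A's regulatory genes held the widest spread, from -1.39 to 1.71 on the log2 scale. Of the 16 PP2A members, 5 rose (31.3%, beside 19.7% of all tested genes), 3 fell (18.8%, beside 20.7%) and 8 did not pass the test. For those that moved most, the 250 bases before each annotated start are shown, that is the sequence just upstream of it. They are taken from RefSeq (GRCh38.p14) and run 5' to 3' on the strand of the gene. Capitals mark CCAAT (the CCAAT box), GGGCGG (the GC box) and TGACG (the core of the cAMP response element), each searched on both strands, so a match on the other strand appears as its reverse complement. RefSeq gives 2 starts each for PPP2R2B and PPP2R1A, and the more upstream one of PPP2R1A is shown.
PPP2R2B upstream start, chr5:147055962-147056211, minus strand: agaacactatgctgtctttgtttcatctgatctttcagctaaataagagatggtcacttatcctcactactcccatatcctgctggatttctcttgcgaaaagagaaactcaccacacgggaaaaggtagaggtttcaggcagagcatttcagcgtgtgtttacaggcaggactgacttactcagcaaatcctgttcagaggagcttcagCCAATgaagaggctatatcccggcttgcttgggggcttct
PPP2R2B downstream start, chr5:146878758-146879007, minus strand: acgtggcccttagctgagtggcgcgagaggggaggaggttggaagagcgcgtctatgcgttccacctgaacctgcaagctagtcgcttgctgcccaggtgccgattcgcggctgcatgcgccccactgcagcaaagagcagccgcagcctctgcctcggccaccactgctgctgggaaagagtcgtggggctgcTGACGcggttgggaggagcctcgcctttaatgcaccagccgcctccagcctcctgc
PPP2R5B, chr11:64924439-64924688, plus strand: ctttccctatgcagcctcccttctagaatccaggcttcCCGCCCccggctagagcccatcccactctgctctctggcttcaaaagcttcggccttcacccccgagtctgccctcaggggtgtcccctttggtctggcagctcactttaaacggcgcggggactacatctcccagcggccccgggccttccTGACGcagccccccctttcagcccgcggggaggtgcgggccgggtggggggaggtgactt
PPP2R3B, chrX:386908-387157, minus strand: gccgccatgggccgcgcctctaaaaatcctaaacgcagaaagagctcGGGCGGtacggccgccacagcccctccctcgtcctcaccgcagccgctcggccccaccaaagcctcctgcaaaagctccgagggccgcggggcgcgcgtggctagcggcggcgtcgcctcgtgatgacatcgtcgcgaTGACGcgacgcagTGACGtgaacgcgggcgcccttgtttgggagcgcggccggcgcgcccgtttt
PPP2R1A, chr19:52189802-52190051, plus strand: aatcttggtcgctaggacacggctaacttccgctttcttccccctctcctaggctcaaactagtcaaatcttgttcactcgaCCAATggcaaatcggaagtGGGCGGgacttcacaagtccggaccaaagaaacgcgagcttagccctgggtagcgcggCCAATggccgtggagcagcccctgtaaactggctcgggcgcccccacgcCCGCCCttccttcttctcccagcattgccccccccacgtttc
The motif matches differ between these windows. PPP2R1A holds 2 CCAAT boxes and 2 GC boxes, and PPP2R3B holds 2 TGACG cores and 1 GC box. PPP2R5B and the downstream window of PPP2R2B hold 1 TGACG core each, and PPP2R5B also holds 1 GC box. The upstream window of PPP2R2B is the poorest in G and C, at 46.0% against 58.4% for the median window in the table, and holds 1 CCAAT box. Both PPP2R2B windows and that of PPP2R5B lie inside the span of the gene in the deposited table, and a gene count cannot tell which start was used.

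Windows were found for 56 of the 72 members, 81 windows in all, since a gene can have several starts. Of these, 39.5% held a CCAAT box, 63.0% a GC box and 32.1% a TGACG core, beside 32.0%, 42.7% and 21.2% of all 34961 windows. Among 13 windows of members that rose, 7 held a CCAAT box, 7 a GC box and 4 a TGACG core. Among 17 windows of members that fell, 6 held a CCAAT box, 12 a GC box and 8 a TGACG core. The ETS core CCGGAA was in 0 of these 13 and 5 of these 17 windows, and in 14.5% of all windows. For the TEAD core GGAATG these were 0, 4 and 11.9%. The E-box CACGTG was in 2 of the 81 windows and in 6.35% of all windows, and the TATA element TATAAA in 4 and in 10.7%. These matches are a description, and windows of 1 gene are not independent.

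PPP2R2B rose most of all members. It encodes the B-beta form of B55, known mainly from brain, and lies on chromosome 5 (146581146 to 147084784, minus strand). PPP2R2B had 5.46 and 5.25 CPM in siControl and 17.4 and 17.7 CPM in siNAT10. The replicates lay close together and the groups far apart. It rose 3.27-fold (log2 fold change 1.71 ± 0.12, 95% interval 1.46 to 1.96, edgeR adjusted p = 1.41e-09). The call held in all 12 alternatives that tested it, with log2 fold changes from 1.60 to 1.74. The 5S_rRNA row that overlaps 0.772% of its exon length had 0 to 4 counts per library.

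The other B55 genes did not pass the test. PPP2R2A, the B-alpha gene, had 94.7 and 98.2 CPM in siControl and 105 and 101 CPM in siNAT10 (log2 fold change 0.10, 95% interval -0.04 to 0.24). PPP2R2D was at 32.9 and 34.8 CPM against 36.6 and 35.6 CPM (0.09, 95% interval -0.08 to 0.26). PPP2R2C was at 2.81 and 2.53 CPM against 2.57 and 2.74 CPM (-0.01, 95% interval -0.45 to 0.43). Their adjusted p was 0.269 for PPP2R2A, 0.39 for PPP2R2D and 0.979 for PPP2R2C in edgeR. Per kilobase, PPP2R2A still made up most of the B55 level, with 70.8% and 70.7% in siControl and 67.9% and 67.3% in siNAT10. PPP2R2B went from 2.44% and 2.26% to 6.70% and 7.03%, so it remained a minor B55 transcript.

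The B56 genes split, with 2 that rose (40%, beside 19.7% of all tested genes), 2 that fell (40%, beside 20.7%) and 1 not called. PPP2R5B, the B56-beta gene (chromosome 11, 64917553 to 64934473), had 5.91 and 6.65 CPM in siControl and 2.25 and 2.54 CPM in siNAT10. The groups did not overlap, and PPP2R5B fell by 1.39 ± 0.18 on the log2 scale, 2.62-fold (95% interval -1.77 to -1.01, edgeR adjusted p = 4.56e-06). PPP2R5C, the B56-gamma gene (chromosome 14, 101761798 to 101927989), had 154 and 161 CPM in siControl and 97.8 and 104 CPM in siNAT10. Both siNAT10 libraries lay well below, and PPP2R5C fell by 0.64 ± 0.07 on the log2 scale (edgeR adjusted p = 3.49e-07). Both calls held in all 13 alternatives, and no other row overlaps the exons of these genes.

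PPP2R5D, the B56-delta gene, had 43.6 and 45.0 CPM in siControl and 56.3 and 55.1 CPM in siNAT10. It rose 1.26-fold (log2 fold change 0.33 ± 0.07, edgeR adjusted p = 0.00132), a call lost against a fold change of 1.2. MEA1, which overlaps 7.51% of its exon length on the other strand, had 6203 and 6714 counts in siControl and 5414 and 4545 in siNAT10, that is lower in siNAT10. PPP2R5A, the B56-alpha gene, had 17.8 and 17.4 CPM in siControl and 20.5 and 23.2 CPM in siNAT10. It rose 1.24-fold (0.31 ± 0.10, edgeR adjusted p = 0.0171), a call lost in 4 of 13 alternatives, among them scaling by library totals, DESeq2 and the leaving out of siNAT10 replicate 2 (0.22, edgeR adjusted p = 0.193). PPP2R5E, the B56-epsilon gene, was at 26.7 and 27.3 CPM against 26.4 and 23.8 CPM (-0.10, 95% interval -0.29 to 0.08, edgeR adjusted p = 0.385).

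**Figure D2:**
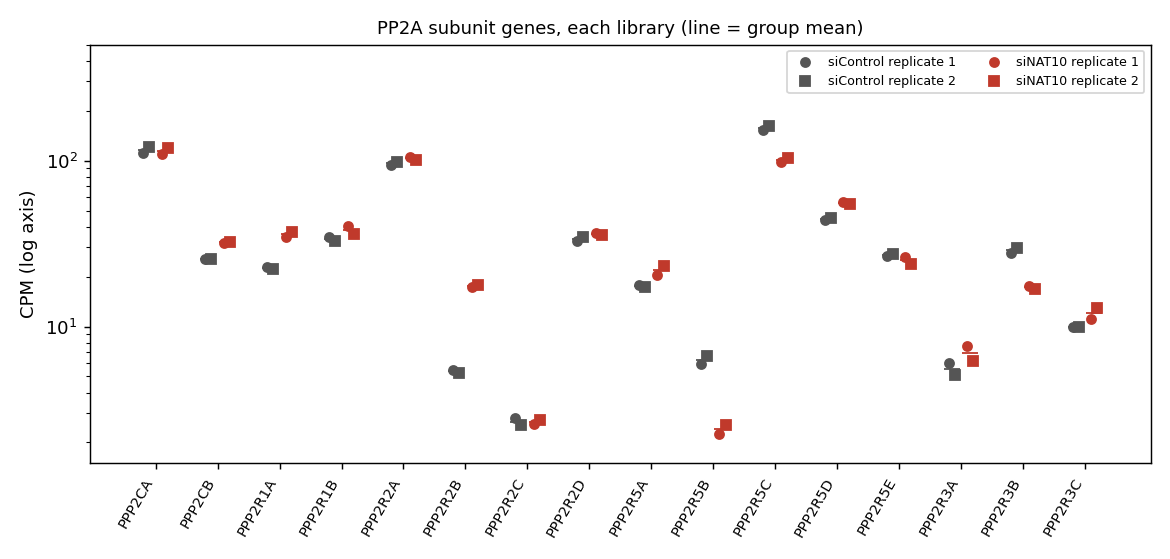
CPM (log axis) of the 16 PP2A subunit genes in each of the 4 libraries, siControl in grey and siNAT10 in red, with circles for replicate 1, squares for replicate 2 and a line at each group mean. PPP2R2B lies near 5 CPM in siControl and near 17 CPM in siNAT10, while PPP2R5B, PPP2R5C and PPP2R3B are lower in both siNAT10 libraries.

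The levels of the 5 B56 genes did not overlap between groups, as held for 69.5% of all tested genes. The summed B56 level overlapped narrowly. It was 33.2 and 34.4 CPM per kilobase in siControl and 32.7 and 33.3 in siNAT10. PPP2R5C went from 32.4% and 32.9% of that sum to 20.9% and 21.9%. PPP2R5D went from 39.6% and 39.5% to 51.9% and 49.9%. PPP2R5B went from 5.26% and 5.73% to 2.04% and 2.26%, and none of these 3 shares overlapped between groups. The share of PPP2R5E did overlap, at 8.73% and 8.65% in siControl and 8.78% and 7.76% in siNAT10.

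**Figure D3:**
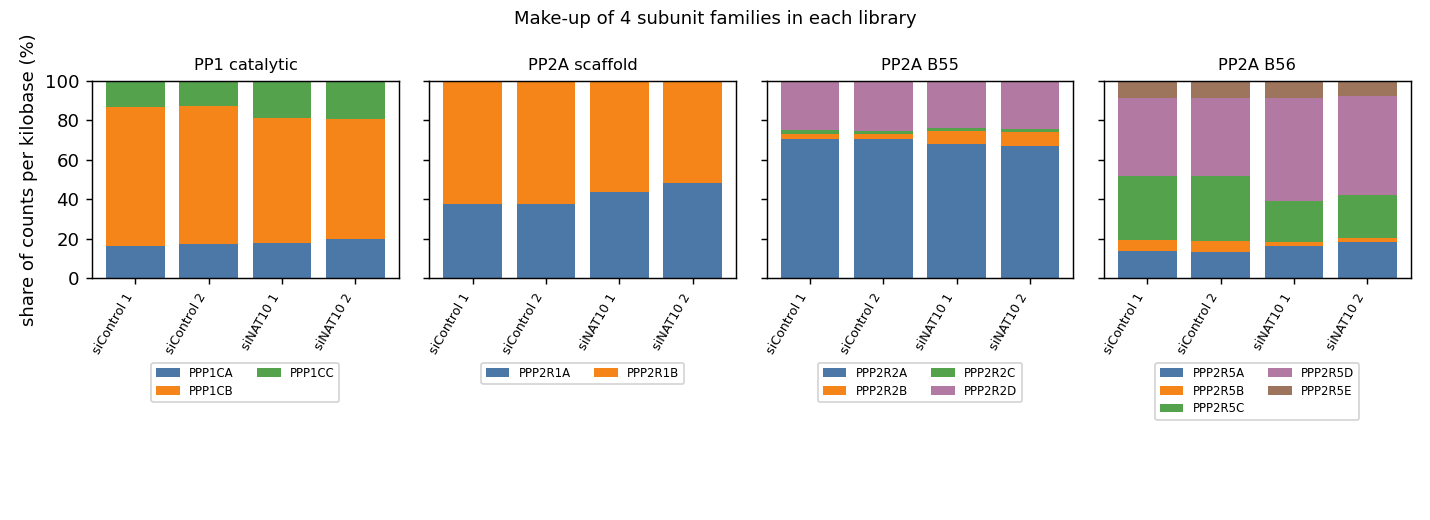
Share of each gene (%) in the level per kilobase of its family, for the PP1 catalytic, PP2A scaffold, B55 and B56 genes, with 1 stacked bar per library. In B56 the share of PPP2R5C is 20.9% and 21.9% in the siNAT10 libraries and 32.4% and 32.9% in siControl, and in PP1 the share of PPP1CC is larger in both siNAT10 libraries.

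A scaffold gene rose. PPP2R1A, the A-alpha scaffold gene (chromosome 19, 52190039 to 52229533), had 22.9 and 22.2 CPM in siControl and 34.6 and 37.3 CPM in siNAT10. The groups did not overlap, and PPP2R1A rose 1.59-fold (log2 fold change 0.67 ± 0.09, edgeR adjusted p = 4.67e-06). CTD-2525I3.3, which overlaps 9.55% of its exon length on the other strand, had 21 to 38 counts per library. PPP2R1B, the A-beta gene, was at 34.6 and 32.9 CPM against 40.2 and 36.4 CPM and did not pass the test (0.18 ± 0.08, edgeR adjusted p = 0.091). The scaffold level per kilobase was 8.23 and 7.88 in siControl and 10.6 and 10.4 in siNAT10, and PPP2R1A made up 37.4% and 37.9% of it in siControl and 43.7% and 48.1% in siNAT10.

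Among the PR72-type B subunits, PPP2R3B fell. It encodes a subunit that binds the replication licensing factor CDC6 and lies on chromosome X (333963 to 386955), in the end region that chromosome Y shares. PPP2R3B had 27.8 and 29.7 CPM in siControl and 17.6 and 16.9 CPM in siNAT10, again without overlap. It fell by 0.74 ± 0.09 on the log2 scale (edgeR adjusted p = 3.28e-06). The call held in all 13 alternatives. PPP2R3A and PPP2R3C were not called, with log2 fold changes of 0.31 and 0.27.

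Of the 33 tested PP1 genes, 4 rose (12.1%, beside 19.7% of all tested genes) and 7 fell (21.2%, beside 20.7%), so falls were about as frequent as in all genes. Of the 7, 2 were among 6 tested glycogen genes (33.3%) and 2 among 4 tested myosin and ankyrin-repeat genes (50%), beside 20.7% of all tested genes. Of these 4 calls, only that of PPP1R3G held in every alternative. The 6 subunits that bring PP1 to glycogen had log2 fold changes from -0.93 to -0.04. Of these, 2 fell (33.3%, beside 20.7% of all tested genes). PPP1R3G (chromosome 6, 5084581 to 5089487) had 2.94 and 3.02 CPM in siControl and 1.62 and 1.49 CPM in siNAT10. It fell by 0.93 ± 0.23 on the log2 scale (edgeR adjusted p = 0.00295), from 112 counts in each siControl library to 56 and 44 in siNAT10. The call held in all 13 alternatives, with an adjusted p of up to 0.0472. PPP1R3F was at 6.51 and 5.79 CPM in siControl and at 4.77 and 4.00 CPM in siNAT10. It fell by 0.48 ± 0.16 on the log2 scale (edgeR adjusted p = 0.0231), a call lost in 4 of 13 alternatives, among them the leaving out of siControl replicate 1 (-0.40, edgeR adjusted p = 0.123) or siNAT10 replicate 2 (-0.37, edgeR adjusted p = 0.167). The uncalled glycogen genes PPP1R3B, PPP1R3C, PPP1R3D and PPP1R3E had log2 fold changes of -0.04, -0.40, -0.12 and -0.38.

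Subunits that bring PP1 to myosin and their ankyrin-repeat relatives moved little. PPP1R12A, the main myosin targeting subunit gene, had 259 and 245 CPM in siControl and 281 and 262 CPM in siNAT10 and was not called (log2 fold change 0.11 ± 0.07, edgeR adjusted p = 0.217). PPP1R12C, its relative, had 22.7 and 28.1 CPM in siControl and 20.1 and 20.8 CPM in siNAT10. It fell by 0.31 ± 0.10 on the log2 scale (edgeR adjusted p = 0.0209). The call was lost in 4 of 13 alternatives, with DESeq2 (adjusted p = 0.0909), against a fold change of 1.2 (edgeR adjusted p = 0.322), without siControl replicate 2, the library in which it was highest (-0.15, edgeR adjusted p = 0.32), and without siNAT10 replicate 1 (-0.28, edgeR adjusted p = 0.089). PPP1R16A was at 29.8 and 32.7 CPM against 27.4 and 25.2 CPM and fell by 0.25 ± 0.09 on the log2 scale (edgeR adjusted p = 0.0337). That call was lost in 4 of 12 alternatives, among them without siControl replicate 2 (-0.18, edgeR adjusted p = 0.195) and without siNAT10 replicate 2 (-0.19, edgeR adjusted p = 0.234). CTD-2517M22.14 overlaps 52.6% of the exon length of PPP1R16A on the other strand and had 675 and 638 counts in siControl and 501 and 389 in siNAT10, so it was lower too. PPP1R12B was not called (-0.18 ± 0.08, edgeR adjusted p = 0.0744).

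The inhibitors of PP1 split. PPP1R14B, a phosphorylation-dependent inhibitor of PP1, had 71.6 and 71.5 CPM in siControl and 90.8 and 101 CPM in siNAT10. It rose 1.34-fold without overlap of the groups (log2 fold change 0.43 ± 0.07, edgeR adjusted p = 9.49e-05). The row of its pseudogene PPP1R14BP3 had 82 and 83 counts in siControl and 104 in both siNAT10 libraries. PPP1R7, the SDS22 gene, whose product holds PP1 in an inactive complex, had 102 and 118 CPM in siControl and 98.2 and 89.9 CPM in siNAT10. It fell by 0.22 ± 0.08 on the log2 scale (edgeR adjusted p = 0.0244), a call lost with DESeq2, against a fold change of 1.2, without siControl replicate 2 (-0.12, edgeR adjusted p = 0.214) and without siNAT10 replicate 2 (-0.16, edgeR adjusted p = 0.258). PASK overlaps 17.4% of its exon length on the other strand. PPP1R2, the inhibitor 2 gene, was at 149 and 141 CPM against 133 and 126 CPM and was not called (-0.16 ± 0.07, edgeR adjusted p = 0.0623). PPP1R11 and PPP1R14C were not called either. The other 5 inhibitor-like genes, PPP1R1B, PPP1R1C, PPP1R14A, PPP1R14D and PPP1R17, had at most 10 counts in any library and were not tested.

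Other PP1 subunits gave smaller differences. PPP1R13L, which encodes the p53 inhibitor iASPP, had 37.1 and 41.1 CPM in siControl and 52.9 and 51.0 CPM in siNAT10. It rose 1.33-fold (log2 fold change 0.41 ± 0.08, edgeR adjusted p = 3.5e-04). CD3EAP, which overlaps 1.15% of its exon length on the other strand, had 2670 and 2553 counts in siControl and 6821 and 5998 in siNAT10, so it was higher too. PPP1R18, the gene of the actin-binding phostensin and the highest member per kilobase in both groups, had 359 and 364 CPM in siControl and 416 and 412 CPM in siNAT10. It rose 1.14-fold (0.19 ± 0.06, edgeR adjusted p = 0.0169), a call lost when libraries were scaled by totals (0.083), against a fold change of 1.2, without siNAT10 replicate 1 (edgeR adjusted p = 0.12) and without siNAT10 replicate 2 (edgeR adjusted p = 0.104). PPP1R26 had 222 and 223 CPM in siControl and 195 and 188 CPM in siNAT10. It fell by 0.22 ± 0.06 on the log2 scale (edgeR adjusted p = 0.00912), a call lost against a fold change of 1.2, without siNAT10 replicate 1 (edgeR adjusted p = 0.0506) and without siNAT10 replicate 2 (edgeR adjusted p = 0.139).

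Several well-known PP1 partners were not called. PPP1R15B, whose product directs PP1 to the translation factor eIF2-alpha, had 83.5 and 74.5 CPM in siControl and 77.2 and 75.0 CPM in siNAT10 (log2 fold change -0.05, 95% interval -0.21 to 0.10). PPP1R9B, the spinophilin gene, had 287 and 316 CPM against 335 and 308 CPM (0.09, 95% interval -0.05 to 0.24). The nuclear subunit gene PPP1R10, known as PNUTS, was at 81.6 and 71.5 CPM against 79.5 and 84.7 CPM (0.10, 95% interval -0.06 to 0.26). PPP1R10 was called higher without siControl replicate 1 (0.20, edgeR adjusted p = 0.0346), and its value was 0.0084 without siControl replicate 2 and -0.012 by library totals. PPP1R8, which encodes the nuclear inhibitor NIPP1, had a log2 fold change of 0.10 as well. PPP1R9A, PPP1R13B, PPP1R21, PPP1R32, PPP1R35, PPP1R36, PPP1R37 and PPP1R42 also did not pass the test, with log2 fold changes from -0.31 to 0.53. PPP1R27 was not tested.

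Among the 8 tested regulatory genes of PP4 and PP6, only PPP4R3A was called. It encodes a PP4 subunit and had 180.1 and 185 CPM in siControl and 169 and 155 CPM in siNAT10. It fell by 0.17 ± 0.07 on the log2 scale (edgeR adjusted p = 0.0476), and the call was lost in 7 of 13 alternatives, among them the leaving out of siControl replicate 2 (edgeR adjusted p = 0.0699), siNAT10 replicate 1 (edgeR adjusted p = 0.0626) or siNAT10 replicate 2 (-0.11, edgeR adjusted p = 0.446). PPP4R1, PPP4R2, PPP4R3B, PPP6R1, PPP6R2, PPP6R3 and the pseudogene PPP4R1L had log2 fold changes from -0.02 to 0.31 and were not called. PPP4R4 and PPP4R3CP were not tested.

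Genes of the same pathways with other names were taken from lists written down for this comparison. Of 78 tested partner genes, 19 rose and 15 fell, that is 43.6% called beside 40.4% of all genes, with a median log2 fold change of 0.01. For the lists that follow, the shares over all tested genes are 19.7% higher and 20.7% lower. Among 15 regulators and assembly factors of PP2A, 6 rose (40.0%) and 2 fell (13.3%). Those with the smallest adjusted p were the PP2A inhibitor genes SET and ANP32A, the methylesterase gene PPME1 and KIAA1524, which encodes the inhibitor CIP2A. SET had 1670.4 and 1662 CPM in siControl and 2267 and 2336 CPM in siNAT10 and rose 1.38-fold (log2 fold change 0.47 ± 0.06, edgeR adjusted p = 4.94e-06). ANP32A rose 1.42-fold (0.51 ± 0.07), PPME1 1.31-fold (0.39 ± 0.07) and KIAA1524 1.31-fold (0.39 ± 0.07), with an edgeR adjusted p of at most 3.3e-04. In the striatin complexes of PP2A, 4 of 12 tested genes rose (33.3%) and 1 fell (8.33%). Those that rose with the smallest adjusted p were CTTNBP2NL (0.34 ± 0.07), PDCD10 (0.32 ± 0.07) and SLMAP (0.25 ± 0.07). SIKE1 fell by 0.20 ± 0.07. The call of SLMAP was lost in 4 of 13 alternatives, among them without siControl replicate 2 (0.16) and without siNAT10 replicate 1 (0.24). That of SIKE1 was lost in 5 of 13, among them without siControl replicate 2 (-0.14) and without either siNAT10 library (-0.20 each). KIAA1524, CTTNBP2NL and PDCD10 lost theirs only against a fold change of 1.2.

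Among 18 tested partners of PP1, 5 rose (27.8%, beside 19.7% of all tested genes) and 4 fell (22.2%, beside 20.7%). NOM1, which encodes a nucleolar protein that binds PP1, had 80.5 and 82.2 CPM in siControl and 151 and 139.8 CPM in siNAT10 and rose 1.79-fold (log2 fold change 0.84 ± 0.07, edgeR adjusted p = 1.18e-08). CASC5, the gene of the kinetochore scaffold KNL1 that recruits PP1, rose 1.65-fold (0.72 ± 0.07, edgeR adjusted p = 9.62e-08). CDCA2, whose product Repo-Man carries PP1-gamma to chromatin, rose 1.33-fold (0.41 ± 0.07). PHACTR4, which encodes a PP1 binder regulated by actin, fell by 0.39 ± 0.07 on the log2 scale. The edgeR adjusted p was 8.9e-05 for CDCA2 and 1.46e-04 for PHACTR4. The call of PHACTR4 was lost only against a fold change of 1.2.

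Among 11 tested calcineurin regulators and NFAT genes, 2 rose (18.2%, beside 19.7% of all tested genes) and 3 fell (27.3%, beside 20.7%). PPIA, the cyclophilin A gene, rose 1.40-fold (log2 fold change 0.49 ± 0.06) and CHP1, which encodes a calcineurin B homologue, rose 1.29-fold (0.37 ± 0.12), though the call of CHP1 was lost in 4 of 13 alternatives, by library totals (0.26), with DESeq2, against a fold change of 1.2 and without siNAT10 replicate 2 (0.19). NFATC3, a transcription factor that calcineurin activates, fell by 0.41 ± 0.09, and the calcineurin modulator gene RCAN3 fell by 0.41 ± 0.10, both on the log2 scale. The third, NFATC4, named after its values were seen, had 17 and 31 counts in siControl and 5 and 9 in siNAT10. It fell by 1.52 ± 0.57 (edgeR adjusted p = 0.0391), the largest change among the partner genes. With these counts NFATC4 fails the stricter filter of 50 counts in 2 libraries, and its other alternatives are not given. RP11-96D1.11 overlaps 31.8% of the exon length of NFATC3 on the other strand, and RP4-594I10.3 overlaps 15.2% of that of RCAN3. The calls of NFATC3 and RCAN3 were lost only against a fold change of 1.2. The 4 tested PP4 and PP6 partners were not called, with log2 fold changes from -0.22 to 0.14 and an edgeR adjusted p of at least 0.121. Among 18 tested genes listed under the PPM family of metal-dependent phosphatases, a family unrelated to the PPP fold, 2 rose (11.1%) and 5 fell (27.8%). TAB1, which was not called, is counted among them. PHLPP2, which acts on AKT, fell by 0.60 ± 0.09, and PPM1K, the phosphatase of branched-chain amino acid breakdown, fell by 0.72 ± 0.12. PPM1F fell by 0.40 ± 0.08 (0.25 without siControl replicate 2), a call lost only against a fold change of 1.2. PPM1H rose by 0.53 ± 0.12. For PHLPP2, PPM1K, PPM1F and PPM1H the edgeR adjusted p was at most 0.00139. Named after their values were seen, PHLPP1, the paralogue of PHLPP2, rose by 0.51 ± 0.16 (edgeR adjusted p = 0.0134), and PPM1L, at 40 and 24 counts in siControl and 14 and 8 in siNAT10, fell by 1.31 ± 0.47 (edgeR adjusted p = 0.0319). PPM1L fails the stricter filter too. The alternatives of PHLPP1 and PPM1L are otherwise not given.

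**Figure D4:**
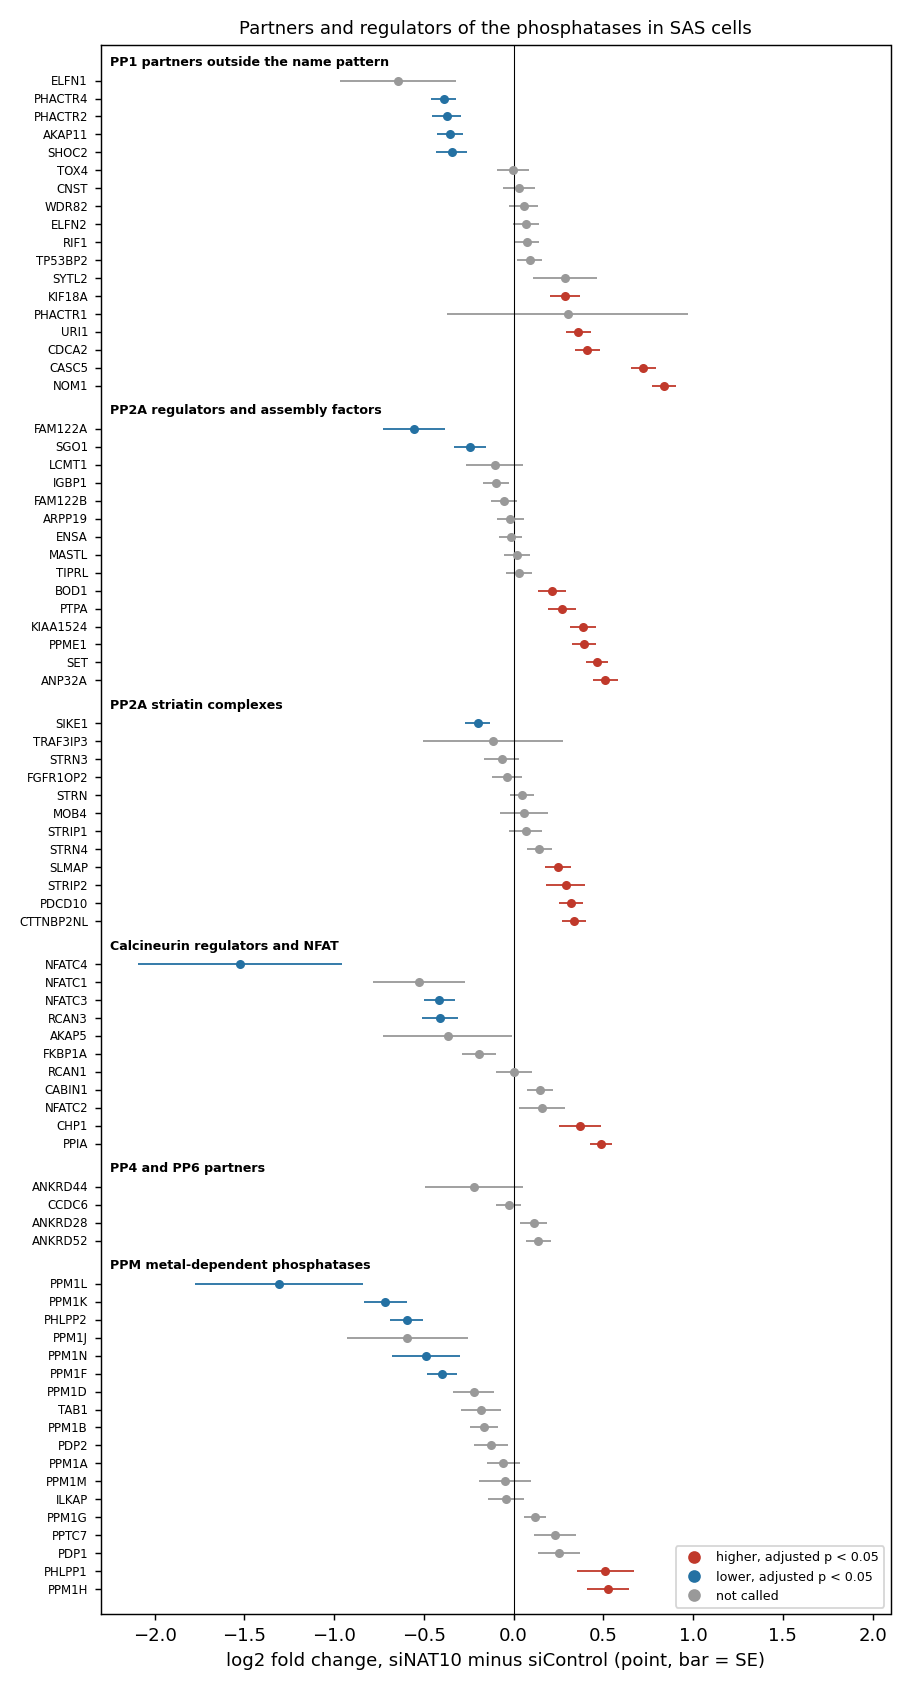
Log2 fold change (siNAT10 minus siControl, horizontal axis) of the 78 tested partner genes, grouped by list, with bars for the SE and colour for the call at an edgeR adjusted p under 0.05. NOM1 (0.84) and CASC5 (0.72) lead the PP1 partners, and SET and ANP32A stand among the PP2A regulators that rose.

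Per kilobase of exon length, 4 of the 5 highest members were regulatory PP1 genes. In siControl the highest members were PPP1R18 (78.7 CPM per kilobase), PPP1R9B (70.2), PPP4C (46.5), PPP1R14B (43.2) and PPP1R26 (42.2). In siNAT10 the order was PPP1R18 (90.03), PPP1R9B (74.8), PPP1R14B (58.1), PPP1R26 (36.2) and PPP4C (30.4). In siControl PPP4C was at 38.9 and 54.1 CPM per kilobase, a range that includes the levels of PPP1R14B and PPP1R26, so PPP4C does not differ from these neighbours beyond its spread. PPP2R2B moved from rank 61 of 72 in siControl, at 0.406 CPM per kilobase, to rank 50 in siNAT10, at 1.33. Exon length here is the union of all annotated exons, so a gene with many unused exons appears low on this scale.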

How the data were processed

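The table deposited by the authors gives raw counts per gene. The submitters' processing notes list STAR 2.5.3a, fastp 0.23.4, featureCounts and GRCh38. Annotation, strand setting and the handling of molecular identifiers: not given in the sources used here. In each library 72.0% to 73.5% of counts between 1 and 50 were even, as when both mates of a pair are counted. Of the raw total, 3 counts are 0.0825 to 0.0974 CPM. Exons of 36 of the 72 members overlap another row on either strand (bedtools 2.31.1). Strand use is not stated, so reads of such rows may be shared.

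After filterByExpr and TMM scaling, edgeR 4.0.16 (R 4.3.3) fitted a robust quasi-likelihood model with the group as its only term. Tests were two-sided, p-values were adjusted over all 20098 genes by Benjamini-Hochberg, and genes under 0.05 were called. CPM use TMM-scaled totals. DESeq2 1.42.0 and 12 other alternatives were run. The members and lists were chosen with earlier results of these data known. Genes described in full were NAT10, all tested catalytic, calcineurin B, scaffold, B55 and B56 genes, and from each other member list those called with a log2 fold change of at least 0.5 and the one with the smallest adjusted p (if none was called, the one with the largest change). Up to 4 called genes of each partner list were added. PPP1R3F, PPP1R7, PPP1R16A, PPP1R18, FAM122A, SGO1, PTPA, BOD1, NFATC4, PHLPP1 and PPM1L were chosen after their values were seen. So were the uncalled genes given with values outside these families.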

Additional observations from a re-analysis of the deposited data

How the results depend on the processing

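Of the 23 called members, 11 kept direction and call in every alternative that tested them, 2 lost the call only in a test against a fold change of 1.2, 10 lost it elsewhere too, and none reversed. Of 12 members called lower and 11 higher, 5 and 6 passed against a fold change of 1.2, 4 higher and 9 lower among rows with no overlapping exons (29 members tested), and 7 lower with DESeq2. Without single libraries, 9 to 14 members were higher and 6 to 11 lower, with 6 lower without siNAT10 replicate 2. Scaling by totals gave 8 higher and 15 lower, 34.8% higher against 47.8%.

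For partner genes (19 higher, 15 lower), 8 and 2 passed against a fold change of 1.2, 9 were lower with DESeq2 and 7 lower without overlapping rows. For all genes (3951 higher, 4169 lower), these were 1961 and 2485 against a fold change of 1.2, 1894 and 2040 without overlapping rows, where 9865 genes were tested, and 2771 lower with DESeq2.

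Uncalled genes near 0 changed sign when scaled by totals, with log2 fold changes of -0.024 for NAT10, -0.014 for PPP1CA, -0.012 for PPP1R10, -0.014 for PPP2R2A and -0.018 for PPP2R2D. Without single libraries the range was -0.077 to 0.048 for PPP2CA, -0.17 to 0.15 for PPP3CA, -0.085 to 0.048 for PPP3R1 and -0.082 to 0.067 for PPP2R2C. The cause was not tested.

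The replicate numbers are shared by the groups. Deviations of same-numbered libraries correlated at -0.026 across genes, which cannot show whether those libraries were prepared together. With the replicate block, 11 members were higher and 11 lower, with PPP4R3A no longer called (adjusted p = 0.0598), and 3997 and 4257 genes were called in all. The 8 untested members had 0 to 10 counts per library, and the part of depth in this was not tested.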
